A study of Mus musculus with 23 samples.

Results

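The vitamin D and calcium absorption genes considered here were Vdr, S100g, Trpv6, Cyp24a1 and Atp2b1. They were taken by gene name from the scanner files and were carried by 7 probes. They are 5 of 34741 labels counted as genes on the array, not all of which are names in RefSeq. Transcript levels came from small-intestine scrapings of 23 adult male mice of the C57BL/6J strain, each read on its own 2-colour Agilent array. After 3 weeks on a normal-fat diet, every mouse ate a high-fat diet for 12 weeks, either plain (HF, 12 mice) or with 0.33% by weight of the plant flavonol quercetin (HF-Q, 11 mice), and was fasted for 2 to 4 h before the tissue was taken. Of 24 mice, 1 that ate quercetin was left out by the authors because of an abscess. Both groups ate the high-fat diet, so neither shows the level on a normal-fat diet. Each value is the log2 ratio of a mouse's RNA (Cy5) over a pool of all mice (Cy3). A value of 0 is the level in the pool, and a difference of 1 is a doubling.

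Vdr encodes the vitamin D receptor, a nuclear receptor that binds the hormone calcitriol and, paired with a retinoid X receptor, drives transcription of its target genes. In the enterocytes of the duodenum these targets build a route for calcium. Trpv6 is the channel through which calcium enters at the brush border, S100g (calbindin-D9k) is the small protein that buffers and carries it across the cell, and Atp2b1 (PMCA1) is the pump that pushes it out on the blood side. Cyp24a1 is the mitochondrial enzyme that breaks calcitriol down and is itself a sensitive target of the receptor.

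RefSeq's promoter table (GRCm38.p6, 250 bases before to 50 after each gene's start) held 5 windows for 4 of the 5 genes. Those of S100g and Trpv6, the buffer and the entry channel, are shown because both genes are classical targets of the receptor, and because they are the windows that held more than 1 receptor hexamer. The capitals mark each match, on either strand, to the hexamer AGGTCA or to its variants, which were GGGTCA as well as AGTTCA and also GGTTCA.
S100g: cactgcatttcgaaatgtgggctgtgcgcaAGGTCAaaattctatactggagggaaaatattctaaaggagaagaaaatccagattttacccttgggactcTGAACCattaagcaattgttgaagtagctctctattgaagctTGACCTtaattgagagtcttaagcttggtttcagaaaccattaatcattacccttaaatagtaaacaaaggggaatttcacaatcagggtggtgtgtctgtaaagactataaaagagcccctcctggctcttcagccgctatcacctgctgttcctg
Trpv6: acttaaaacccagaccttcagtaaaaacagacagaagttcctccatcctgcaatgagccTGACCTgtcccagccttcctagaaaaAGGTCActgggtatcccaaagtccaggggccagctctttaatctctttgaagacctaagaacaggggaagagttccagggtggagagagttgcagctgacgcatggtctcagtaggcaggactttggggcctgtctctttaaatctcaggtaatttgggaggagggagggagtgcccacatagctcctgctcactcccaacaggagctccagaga
The S100g window lies at chrX:162964550-162964849 and the Trpv6 window at chr6:41636356-41636655, both on the minus strand. S100g held 3 hexamers, Trpv6 held 2 and Vdr held 1, while both windows of Atp2b1 (79.3% G and C) held 0. A hexamer was present in 43.7% of 32851 promoters of this length, and 2 or more were present in 13.1%. No window of these genes held 2 hexamers in 1 orientation with 3 bases between them, the direct repeat the receptor pair is known to bind, and 0.0396% of all promoters did. These matches describe the letters in the windows and nothing about binding.

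The tissue label was checked first, since a protocol field names liver as the source of the RNA while every other label says small intestine. All 11 enterocyte markers (such as Alpi, Vil1 and Sis), all 10 markers of the proximal and all 7 of the distal small intestine were detected well over background in each of the 23 mice. Of 8 hepatocyte markers, Fga, Ttr and Apoh were well above background on all 23 arrays and Alb on 11, and these 4 passed the filter on dim probes. Fgb and Hpx were well above background on 2 arrays each, and Ahsg and Mup3 on 0. Scrapings can carry neighbouring tissue, and a score (the mean log2 ratio of a marker list) for pancreatic acinar cells ran from -3.01 to 1.71 in HF mice and from -3.11 to 2.04 in HF-Q mice. All 10 acinar genes (median log2 difference -0.55) and all 8 measured smooth muscle genes (median -0.22) lay lower in HF-Q mice, and 0 of them passed the test. Arrays were spread over 3 slides, each with both diets.

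Vdr, the receptor, differed between diets by less than its error. The probe (A_52_P334562, chr15:97685136-97685195 on mm9, minus strand) was detected well over background in every one of the 23 mice. In HF mice the log2 ratio ran from -0.20 (replicate 10) through a median of -0.0076 to 0.24 (replicate 3). In HF-Q mice it ran from -0.36 (replicate 7) through 0.040 to 0.23 (replicate 8). The groups overlapped almost throughout, with 6 of the 11 quercetin-fed mice higher than the median of HF. The difference, HF-Q minus HF, was 0.0078 ± 0.065 (SE), with a 95% interval from -0.13 to 0.14 (limma, adjusted p = 0.994). The interval corresponds to a ratio between 0.916 and 1.10 under loess normalization. With arrays centred on their medians instead, the difference was 0.10 ± 0.11 (SE; adjusted p = 0.864), and with array weights it was 0.057 ± 0.058 (SE; adjusted p = 0.988). Fewer cells of a type and less RNA per cell cannot be told apart in scrapings, here or for the genes that follow.

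Trpv6, the entry channel, lay near the limit of detection. Its probe (A_55_P2111444, chr6:41570624-41570683 on mm9, minus strand) was well above background on 5 of 12 HF arrays and 2 of 11 HF-Q arrays, so it did not pass the filter. Values from all 23 arrays ran from -0.31 (replicate 8) through -0.18 to 0.10 (replicate 2) in HF mice. In HF-Q mice they ran from -0.42 (replicate 9) through -0.16 to 0.0095 (replicate 2). The highest mouse of each group was among those not well above background, and the groups overlapped. The difference was -0.018 ± 0.051 (SE; limma on all 34741 genes without the filter, adjusted p = 0.987), and 0 of those genes (0%) passed. The size of the Trpv6 difference moved with the processing. With the log ratio of the scanner software it was -0.18 ± 0.18 (SE), with Cy5 alone -0.073 and without background correction -0.068. At this signal a difference in the channel's transcript was not detectable.

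S100g, the calcium buffer, was the most variable of these genes and the 1 with the largest difference between diets, which did not pass the test. The brighter of its probes (A_55_P2111163, chrX:159399938-159399997 on mm9, minus strand) gave log2 ratios from -1.40 (replicate 8) through a median of -0.38 to 0.62 (replicate 4) in HF mice. In HF-Q mice they ran from -0.49 (replicate 3) through 0.17 to 0.75 (replicate 9). The lower end was filled by HF mice alone, the upper end was shared, and the median of HF was exceeded in 8 of 11 HF-Q mice. S100g was 1.34-fold higher in HF-Q mice (log2 difference 0.42 ± 0.19 SE, 95% interval 0.030 to 0.81, n = 11 and 11). The unadjusted p of limma was 0.0361, and adjusted over 21477 genes it was 0.951. A permutation of the diet labels for this gene alone (100000 resamples, two-sided) gave p = 0.0519. Across all genes 0 passed (0%), and 972 (4.53%) had an unadjusted p under 0.05, of which 452 (2.1% of genes) were higher and 520 (2.42%) lower. By unadjusted p, S100g ranked 657 among the 21477 genes. With the proximal, acinar and smooth muscle scores of each mouse in the fit, the S100g difference was 0.58 ± 0.17 (SE; limma, unadjusted p = 0.00245, adjusted p = 0.298). In that fit 2512 of the 21477 genes had an unadjusted p under 0.05, against 972 without the scores. The proximal score includes Slc40a1 and Pdx1, which followed S100g over mice (r = 0.83 and 0.64), so it is not independent of S100g.

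The S100g difference moved with the treatment of 1 spot and with single mice. The scanner software marked the brighter spot of HF replicate 3 as an outlier, and it was set to missing, which left 11 HF mice. On the other S100g probe (A_55_P2013236, chrX:159399924-159399983), whose target is shifted by 14 bases and shares 46 of its 60 with the first, that mouse was the highest of the HF group at 0.97. This second probe gave a difference of 0.34 ± 0.22 (SE; unadjusted p = 0.140, adjusted p = 0.951, limma). With the outlier spot kept at its value of 0.32, the first probe gave 0.36 (unadjusted p = 0.0648, adjusted p = 0.950). The values of the 2 probes followed each other over mice (r = 0.994, n = 22), which their shared sequence makes a repeat of 1 measurement. By slide, the difference was -0.0073 on slide 1 (-0.13 with the outlier spot kept), 0.75 on slide 2 and 0.55 on slide 3, and whether slides differ was not tested. The other probe gave -0.23, 0.81 and 0.52. On slide 2 the lowest HF-Q mouse (0.20) was just above the highest HF mouse (0.18), whereas on slides 1 and 3 the diets overlapped. Without HF replicate 8, the lowest mouse, the difference was 0.31 (limma, unadjusted p = 0.0772), and without HF replicate 4, the highest, it was 0.52 (unadjusted p = 0.00735).

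**Figure D1:**
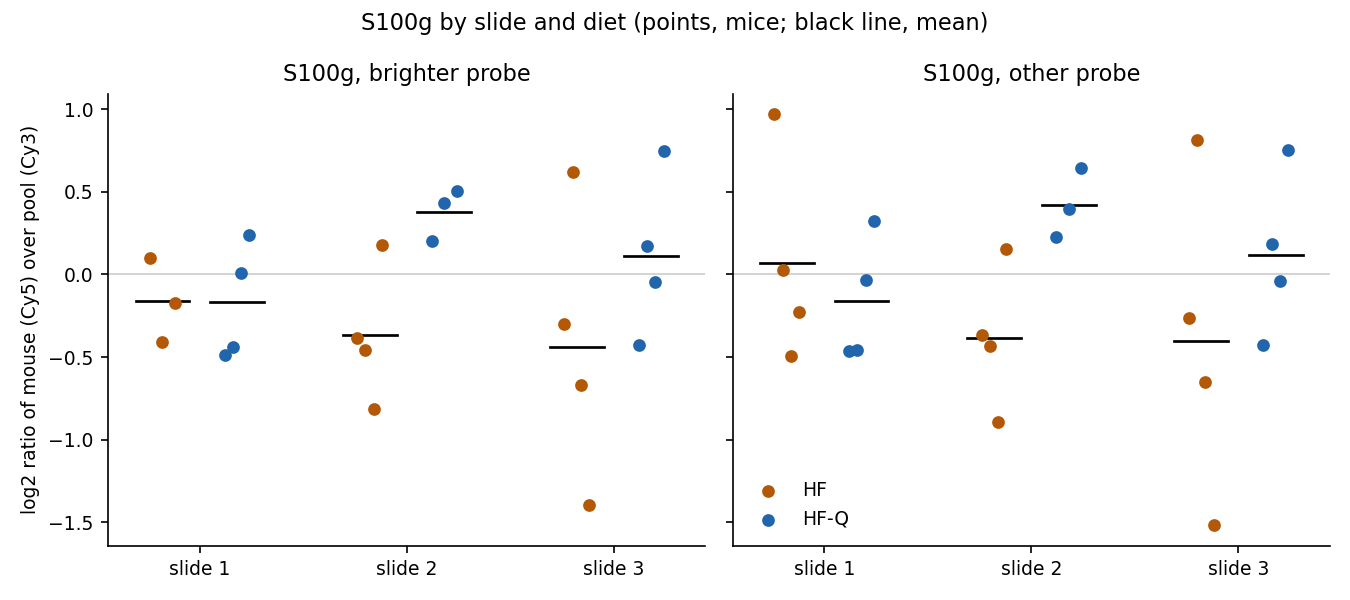
Log2 ratio of S100g in each mouse (points, coloured by diet) by slide for the brighter probe (left) and the other probe (right), with black lines for the mean of each diet on a slide. On slide 1 the means differed by -0.0073 on the brighter probe and -0.23 on the other, on slide 2 by 0.75 and 0.81, and HF replicate 8 was the lowest point on both probes.

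Atp2b1, the pump on the blood side, did not differ between diets beyond its spread. The brighter of its probes (A_66_P138001, chr10:98431670-98431729 on mm9, plus strand) ran from -0.70 (replicate 10) through -0.20 to 0.17 (replicate 2) in HF mice. In HF-Q mice it ran from -0.80 (replicate 11) through -0.25 to 0.044 (replicate 8). Low mice occurred in both groups, and 7 of 11 mice with quercetin were under the median of HF. The difference was -0.071 ± 0.11 (SE; 95% interval -0.30 to 0.15, limma adjusted p = 0.964). The other probe (A_65_P10351, chr10:98485775-98485834) targets the transcript 54105 bases further along the chromosome and shares no sequence with the first. It gave -0.020 ± 0.082 (adjusted p = 0.987), and the 2 followed each other with r = 0.867 over 23 mice. By slide, the brighter probe gave -0.48, 0.17 and 0.12.

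Cyp24a1, the enzyme that breaks calcitriol down, was not well above background on any of the 23 arrays. Its probe (A_52_P88648, chr2:170308865-170308924 on mm9, minus strand) therefore gives no fold between diets, only the statement that its transcript lay below what these arrays resolve in both. The transcript of the receptor was measurable on every array while that of this target was not.

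**Figure D2:**
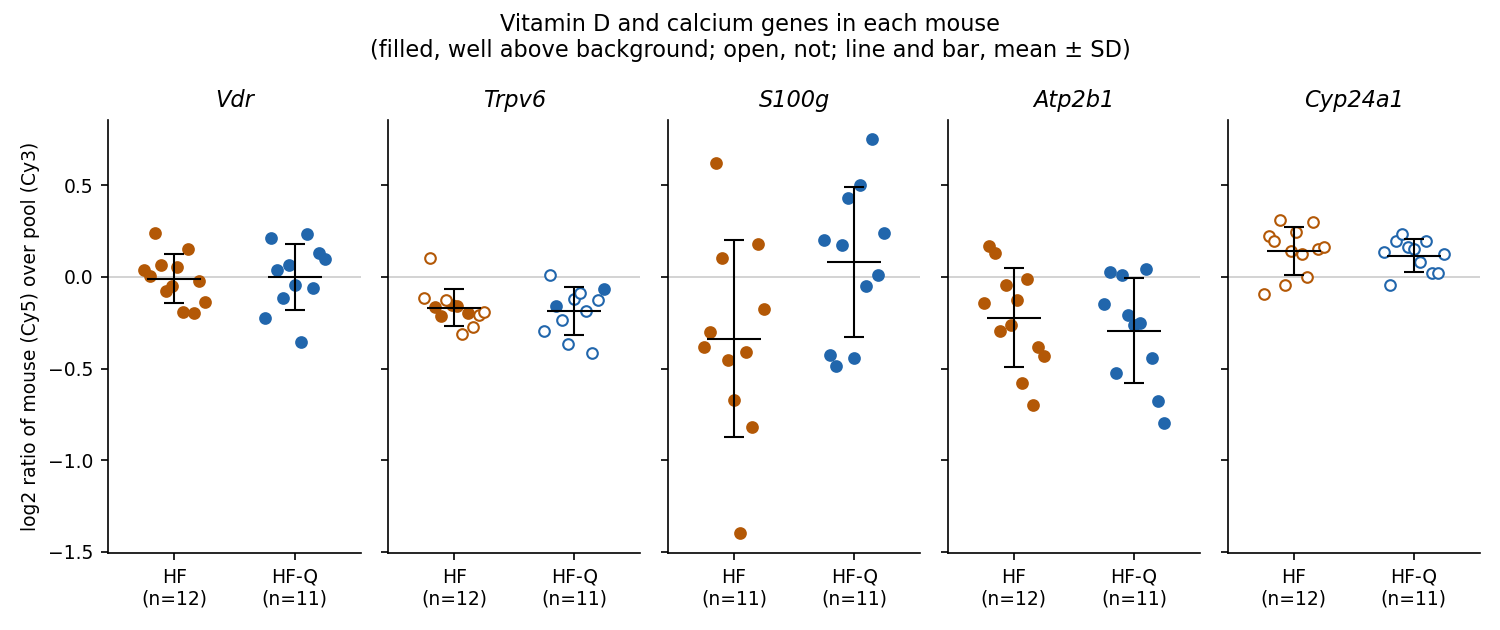
Log2 ratio of each mouse (Cy5) over the pool (Cy3) for the 5 genes, by diet, with filled points well above background, open points not, and the mean ± SD in black. S100g spans -1.40 to 0.75, wider than the other genes, and the Cyp24a1 points are all open.

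The genes varied unequally between mice. The SD of the log2 ratio over all mice was 0.51 for S100g, 0.27 for Atp2b1 and 0.15 for Vdr, against a median of 0.16 over all genes. S100g thus varied more than 97.5% of genes, Atp2b1 more than 86.0% and Vdr more than 43.7%. From the lowest to the highest mouse S100g spanned 4.44-fold, Atp2b1 1.95-fold and Vdr 1.51-fold. The spread within a diet, as the mean absolute deviation from the diet's median, was 0.38 in HF and 0.32 in HF-Q mice for S100g. It was 0.10 and 0.14 for Vdr, and 0.22 in both for Atp2b1. None of these 3 comparisons passed a two-sided permutation test (adjusted p = 0.979 for each).

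The other genes of the pathway were followed through 5 lists with 47 genes, of which 39 were measured. Of these, 20 lay higher and 19 lower with quercetin, the median log2 difference was 0.0033 against -0.0038 over all genes, and 0 passed the test. For 36 of the 39, the 95% interval lay within a 1.5-fold change in either direction. The same share over all genes was not counted, so this is no trait particular to the lists. An unadjusted p under 0.05 was reached by 4 (10.3%, against 4.53% of all genes), 1 higher and 3 lower. All values in the next sentences on these lists are log2 differences, HF-Q minus HF. Those given with ± SE each had an adjusted p of at least 0.951 in limma.

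Among 9 receptor partners and coregulators, 4 lay higher and 5 lower. Rxrb, a retinoid X receptor, differed by -0.10 ± 0.040, and 9 of 11 mice with quercetin were under the median of HF. With median centring the Rxrb difference was -0.015, and within slide 1 it was -0.016. Rxra, another retinoid X receptor, differed by 0.073 ± 0.065. The mean of the probes of Rxra gave the opposite sign (-0.021).

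Of 7 genes of vitamin D uptake and metabolism, 4 were measured. Cubn, the cubilin receptor that takes up several vitamin carriers, differed by -0.49 ± 0.20, the largest difference in these lists. Its log2 ratio ran from -0.16 through 0.42 to 1.42 in HF mice and from -1.06 through -0.055 to 0.54 in HF-Q mice, overlapping widely. Cyp2r1, a hydroxylase that takes part in activating vitamin D, differed by -0.21 ± 0.080, with 1 of its 2 probes on that side. Cyp27b1, the enzyme that makes calcitriol, was well above background on 5 arrays and did not pass the filter.

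Of 7 other known or proposed targets of the receptor, 5 lay higher and 2 lower. Cldn2, a claudin that forms paracellular pores for cations, differed by 0.33 ± 0.16, and its other probe by 0.12 ± 0.12. Slc34a2, the phosphate transporter of the brush border, differed by 0.046 ± 0.20. Cyp3a11, a drug-metabolising enzyme, differed by -0.0063 ± 0.15, a value whose sign turned under median centring (0.097). Among 19 genes of calcium transport and binding, 14 were measured, 7 on each side. The sodium-calcium exchanger Slc8a1 differed by 0.051 ± 0.062, from 10 arrays well above background, and with the Cy5 signal alone by -0.071. Trpv5, the channel of the kidney, was above background on 0 arrays, and Calb1, the kidney's larger calbindin, on 2. Of 5 phosphate and magnesium transporters, 2 lay higher and 3 lower.

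**Figure D3:**
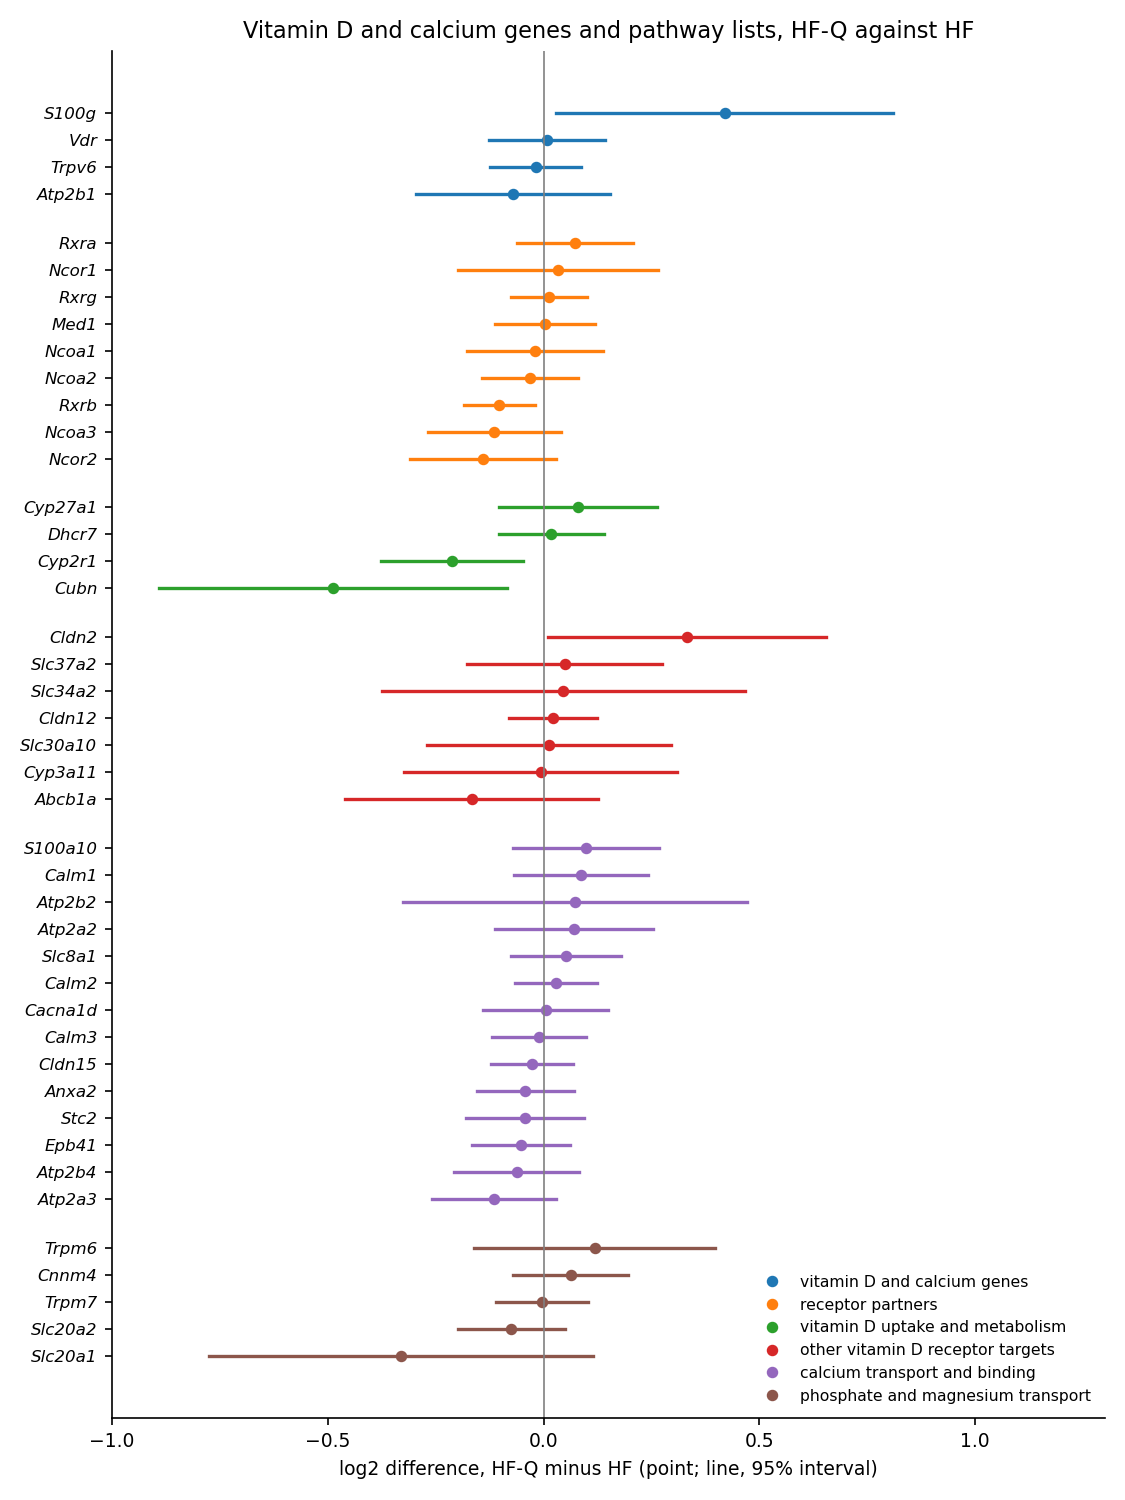
Log2 difference, HF-Q minus HF (points) with its 95% interval (lines), for the 4 genes of the set with a value and for the 39 measured genes of the pathway lists, coloured by list. Most points lie close to 0, and intervals that do not reach 0 belong to S100g, Rxrb, Cyp2r1, Cubn and Cldn2, none of which passed after adjustment.

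Cldn2 did not pass the test in the comparison above, and passed it when cell type scores entered the fit. Its log2 ratio ran from -0.82 through -0.056 to 0.68 in HF mice and from -0.26 through 0.25 to 0.68 in HF-Q mice, and the median of HF was exceeded in 9 of 11 HF-Q mice. Over the 23 mice it followed the proximal small intestine score with r = -0.69 and the smooth muscle score with r = 0.46. With the crypt and cell cycle score it had r = 0.66 and with the distal score 0.53, and neither of these was in the fit that follows. It had r = -0.37 with the enterocyte score and 0.063 with the acinar score. With the proximal, pancreatic acinar and smooth muscle scores of each mouse as covariates, its difference was 0.41 ± 0.065 (SE; limma, unadjusted p = 1.84e-06, adjusted p = 0.0395). That made it the single call among 21477 genes (2512 with an unadjusted p under 0.05). After the part of Cldn2 predicted by the 3 scores was taken off, all 11 HF-Q mice lay above 0 and 9 of 12 HF mice below. The overlap was small (HF up to 0.16, HF-Q from 0.043). Cldn2 was looked at because it was the call of this fit, so the separation shows that call by mouse and adds no further support.

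The Cldn2 call rested on that setting. With the slide added beside the scores, the adjusted p was 0.125 at a like difference (0.41). With any 1 or 2 of the scores, the difference was 0.25 to 0.50 and 0 genes passed. In 23 fits that each left out 1 mouse, the difference stayed between 0.39 and 0.45, and the adjusted p was under the threshold in 6 and above it in 17 (0.00292 to 0.190). The other Cldn2 probe gave 0.075 ± 0.11 in the same fit (unadjusted p = 0.494).

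Over mice, no pair of these genes passed a test of correlation. Of 10 pairs among the 5 genes, 0 passed (lowest adjusted p = 0.755 for r and 0.681 for rho, permutation with 100000 resamples, two-sided, Benjamini-Hochberg over 10 pairs). These 10 include 4 pairs with Cyp24a1, whose values are background, and over the other 6 alone 0 passed as well (lowest adjusted p = 0.453 for r and 0.607 for rho). The receptor and the buffer, Vdr and S100g, had r = 0.0042 and rho = -0.0051 (n = 22, permutation p = 0.985 and 0.984, adjusted p = 0.985 and 0.988), and r = 0.17 without the 2 mice farthest from the median of Vdr. Vdr and Atp2b1 had r = 0.29 and rho = 0.31 (n = 23, permutation p = 0.176 and 0.142, adjusted p = 0.755 and 0.681), and r = 0.25 without 2 mice. S100g and Atp2b1 had r = 0.078 and rho = 0.0040 (n = 22, permutation p = 0.730 and 0.988, adjusted p = 0.912 and 0.988), and r = -0.013 without 2 mice. The 2 targets whose promoters are shown above, S100g and Trpv6, had r = -0.17 (adjusted p = 0.912), with Trpv6 mostly at background.

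Within diets the r values differed, but the difference passed the adjusted test for 0 of 10 pairs. In HF mice Vdr and Atp2b1 followed each other (r = 0.78, n = 12), and the value stayed between 0.71 and 0.86 with each mouse left out. In HF-Q mice they had r = -0.065 (n = 11; -0.28 to 0.056 with each mouse left out). Trpv6, well above background on only 5 of 12 HF and 2 of 11 HF-Q arrays, had r = 0.76 with Atp2b1 in HF and -0.092 in HF-Q mice. Vdr and S100g had 0.45 and -0.45. A permutation of diet labels on the difference of r, added after these values were seen, gave unadjusted p = 0.0401, 0.0407 and 0.0542 for those 3 pairs, and an adjusted p of 0.181 for each over 10 pairs (0.108 over the 6 without Cyp24a1). By slide, Vdr and Atp2b1 had r = 0.15, 0.23 and 0.57, Trpv6 and Atp2b1 -0.55, 0.17 and 0.80, and Vdr and S100g 0.033, -0.14 and 0.19.

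**Figure D4:**
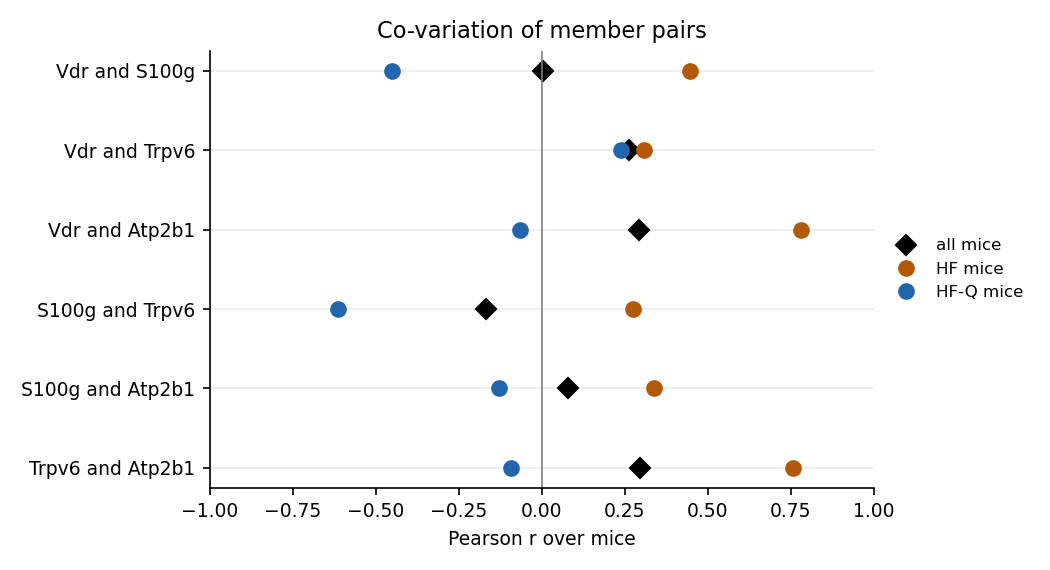
Pearson r over mice for the 6 pairs among Vdr, S100g, Trpv6 and Atp2b1, over all mice (diamonds) and within HF and HF-Q mice (circles). In HF mice all pairs lie to the right of 0, with Vdr and Atp2b1 at 0.78, whereas in HF-Q mice only Vdr and Trpv6 do. The difference of r between diets passed the adjusted test for no pair.

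The receptor and the pump followed the enterocyte score (the mean log2 ratio of the 11 markers), and for the buffer no such relation passed. Vdr had r = 0.59 with the enterocyte score (n = 23, permutation p = 0.0030, adjusted p = 0.0450 over 30 relations; 0.66 without 2 mice), with 0.55 in HF and 0.70 in HF-Q mice and 0.49 to 0.79 within slides. By rank it had rho = 0.51 (permutation, adjusted p = 0.132). Atp2b1 had r = 0.64 with this score (n = 23, permutation p = 0.00115, adjusted p = 0.0345; 0.59 without 2 mice) and rho = 0.71 (adjusted p = 0.00720). It gave 0.78 in HF and 0.46 in HF-Q mice and 0.39 to 0.85 within slides. With the means of diet and slide taken off, the r values were 0.58 and 0.61, with adjusted p = 0.0597 and 0.0561, above the threshold. The 30 relations include 6 with Cyp24a1, at background. Over the other 24, a family chosen after seeing the data, both relations passed as measured (adjusted p = 0.0360 and 0.0276) and with those means taken off (0.0478 and 0.0449). S100g had r = -0.24 and rho = -0.32 with the enterocyte score (n = 22, permutation p = 0.282 and 0.143, adjusted p = 0.564 and 0.430; -0.29 without 2 mice), and -0.71 in HF-Q against 0.0044 in HF mice, a gap that was not tested.

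Single markers behind the score did not move alike. As a description over up to 23 mice, r with Vdr ran from -0.22 (Anpep, aminopeptidase N) to 0.70 (Alpi, intestinal alkaline phosphatase). The median over the 11 was 0.26. Treh (trehalase) had 0.64 and Vil1 (villin) 0.63, while Slc15a1 had 0.033 and Slc5a1 -0.097. For Atp2b1 all 11 enterocyte genes were positive (0.16 to 0.50). For S100g the 11 ran from -0.44 to 0.23.

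With the proximal score Vdr had r = 0.55 (n = 23, permutation p = 0.00583, adjusted p = 0.0583, or 0.0466 over the 24 relations without Cyp24a1; rho 0.51, 0.52 without 2 mice). The duodenal gene S100g had r = 0.26 with this score (n = 22, permutation p = 0.247, adjusted p = 0.564, rho 0.19, and r = 0.30 without 2 mice). It had 0.57 in HF and -0.50 in HF-Q mice, and 0.20, -0.13 and 0.66 by slide. The gap between diets was not tested, and the proximal score varied less in HF-Q mice (SD 0.085) than in HF mice (SD 0.25). The 10 proximal markers split in how they followed S100g. Slc40a1 (ferroportin, the exporter of iron on the blood side) had r = 0.83 and Pdx1 (a homeobox factor of duodenum and pancreas) 0.64, while Lct (lactase) had -0.38. The other proximal markers lay between -0.14 (Fabp1) and 0.19 (Cybrd1). Vdr had r = 0.69 with Lct and -0.052 with Slc40a1, the reverse order for these 2 genes, which were picked after their values were seen. No relation of S100g with any of the 6 scores passed, its closest being that with the acinar score (r = 0.39, adjusted p = 0.267, permutation, n = 22).

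Likeness was ranked among the genes with a RefSeq name (15146 of the 21477 tested). By Pearson r, Slc40a1 was also the gene among these most like S100g over 22 mice (0.83). The r was 0.84 in HF and 0.85 in HF-Q mice, 0.77 to 0.87 with each mouse left out, 0.72 without the 2 mice farthest from the median of S100g, and 0.83 on the other S100g probe over 23 mice. Slc40a1 ran from -0.90 (replicate 8) through -0.069 to 0.55 (replicate 3) in HF mice. It ran from -0.53 (replicate 3) through 0.16 to 0.64 (replicate 4) in HF-Q mice. HF replicate 8 was thus the lowest mouse for both genes, and HF replicate 3, whose S100g spot was set aside, the highest HF mouse for Slc40a1 and for the second S100g probe. Its difference between diets was 0.15 ± 0.15 (SE; limma adjusted p = 0.951). The next genes with a RefSeq name were Pcdhb8 (0.74, over 15 mice with values), Asb11 (0.70), Tnni1 (0.67) and Ly6g6e (0.67). Over all genes, with or without such a name, 0.419% reached an r above 0.5 with S100g.

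**Figure D5:**
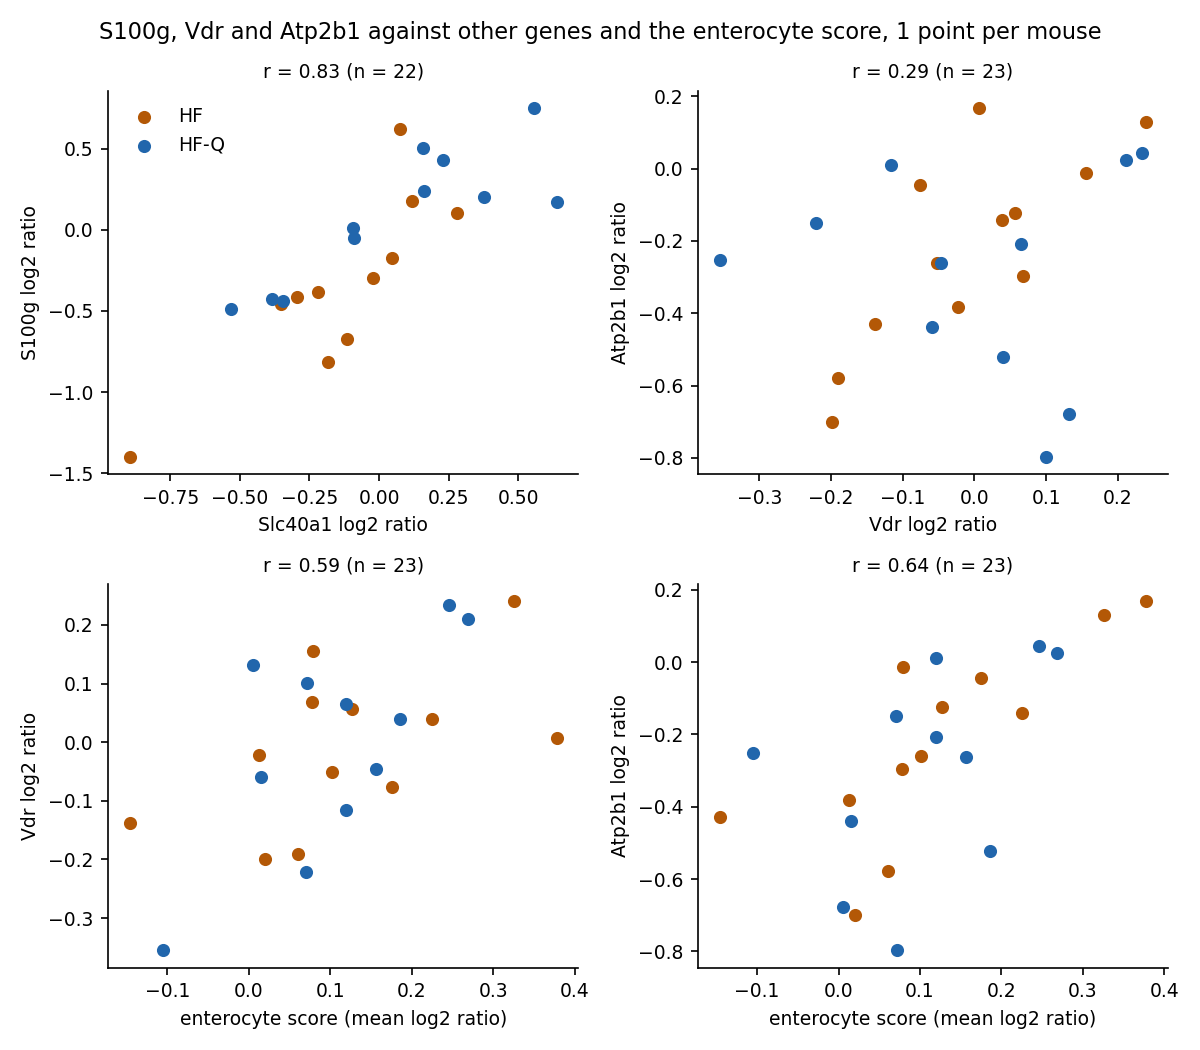
Each point is a mouse, coloured by diet: S100g against Slc40a1, Vdr against Atp2b1, and Vdr and Atp2b1 against the enterocyte score (the mean log2 ratio of 11 markers), all axes in log2 ratio to the pool. S100g and Slc40a1 line up over both diets (r = 0.83), while Vdr and Atp2b1 line up in HF mice (0.78) and scatter in HF-Q mice (-0.065). That difference between diets did not pass (permutation, adjusted p = 0.181).

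An r above 0.5 was reached by 6.09% of genes with Vdr and 4.12% with Atp2b1. Among the genes with a RefSeq name, closest to Vdr were Lenep (0.88), Deptor (an inhibitor of mTOR, 0.88), Svil (supervillin, an actin-binding protein, 0.87), Pnpla2 (adipose triglyceride lipase, 0.86) and Ilrun (0.84). Closest to Atp2b1 among the genes with such a name were Rcor3 (0.88), Zmiz1 (0.86), Gprin3 (0.86), Serpinb6a (0.83, 22 mice) and Rexo1 (0.81). All of these r values stayed between 0.80 and 0.87 for both genes once diet and slide means were taken off. Genes of 1 array share its hybridisation, so these values describe likeness over mice and carry no test.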

How the data were processed

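Each array held the Cy5-labelled RNA of 1 mouse and a Cy3-labelled pool of every mouse, always in this dye orientation, per the labels' protocols. The scanner output is of Agilent Feature Extraction 10.7.3.1, per the submitters' processing notes. The deposited spot and background intensity values are on a linear scale and not normalized between arrays, per the file headers. The log10 ratio of Cy5 over Cy3 in the files, corrected for background and dye by that software per the file headers, served as an alternative, as did the authors' deposited log2 table (its normalization: not given in the sources used here). That table has a median of 9.11 in each column and the direction of Cy5.

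In R 4.3.3 with limma 3.58.1, normexp corrected the background (offset 50), arrays were normalized by loess with control spots at weight 0, outlier spots were set to missing and spots of a probe averaged. A probe was kept when well above background in Cy5 for 50% or more of the mice of a diet (29249 of 55681 probes). A gene was its brightest probe. Names came from RefSeq (GRCm38.p6) by accession (27235 probes), symbol (3581) or synonym (565), and 24300 probes kept the file's name. The diets were compared (HF-Q minus HF) over 23 arrays with lmFit and eBayes, two-sided, with Benjamini-Hochberg adjustment and a threshold of 0.05. The fit was tested on simulated data. Correlations used permutation in Python 3.11.15 (100000 resamples). The number of arrays limits the precision.

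The genes and lists were chosen with earlier results of these data known. Genes named were the 5 themselves, genes of the 5 pathway lists with an unadjusted p under 0.05, and 8 pathway genes picked for their known roles (Cldn2 counts under both). Also named were the 5 genes most like each of Vdr, S100g and Atp2b1 by Pearson r, among those with a RefSeq name. Single genes of the marker lists were named after their values were seen. Nothing in the labels says that the mice were caged separately, so p-values measure the spread between these mice. Protein sequences, exon positions and probe letters were not used here.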

Additional observations from a re-analysis of the deposited data

How the results depend on the processing

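No difference between diets of Vdr, S100g, Trpv6 or Atp2b1 passed the threshold under any alternative run, and Cyp24a1 has no value to vary. Counts over all genes stayed at 0 except for 1 when the fit held the scores for proximal, acinar and smooth muscle genes. Vdr turned sign with the slide as a block (-0.00095), with the replicate block (-0.0039) and within slide 2 (-0.11), was 0.10 with median centring, and ran from -0.016 to 0.043 with each mouse left out. Atp2b1 turned with median centring (0.0035) and within slides 2 (0.17) and 3 (0.12), S100g within slide 1 (-0.0073), and Trpv6 within slide 1 (0.053) and between -0.038 and 0.0063 with each mouse left out. With each mouse left out S100g ran from 0.31 to 0.52 and Atp2b1 from -0.11 to -0.020. With the log ratio of the scanner software Trpv6 was -0.18.

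Among the named pathway genes, Cldn2 passed the threshold with the scores in the fit (0.41). Cyp2r1 turned within slide 3 (0.015), Rxra with the mean of its probes (-0.021), and Slc8a1 with Cy5 alone (-0.071), the authors' deposited log2 table (-0.060) and within slide 2 (-0.014). Slc34a2 turned with the replicate block (-0.038) and within slides 2 (-0.050) and 3 (-0.38), and ran from -0.048 to 0.12 with each mouse left out. Cyp3a11 turned with median centring (0.097), Cy5 alone (0.022), the authors' deposited log2 table (0.028), the mean of its probes (0.056), the slide block (0.0020), array weights (0.071), the scores (0.043) and within slides 2 (0.019) and 3 (0.064), and ran from -0.080 to 0.062 with each mouse left out.

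No pair of genes passed under any alternative, but the size of r moved. Over the alternatives with all mice, Vdr and Atp2b1 ran from 0.19 to 0.55 (lowest adjusted p = 0.0635, permutation). Vdr and Trpv6 ran from 0.18 to 0.52 (lowest adjusted p = 0.118), and Trpv6 and Atp2b1 from 0.15 to 0.34. Vdr and S100g had r = -0.073 and S100g and Atp2b1 -0.062 with the scores removed, S100g and Trpv6 0.030 with Cy5 alone, and with each mouse left out these ran from -0.18 to 0.18, -0.078 to 0.17 and -0.39 to 0.0077. With diet and slide means removed, 0 of 30 relations with marker scores passed in place of 2 (enterocyte score with Vdr 0.58 and with Atp2b1 0.61), and the sign turned for Vdr with acinar (0.13), S100g with smooth muscle (0.11) and Atp2b1 with distal (-0.059). With Cyp24a1 left out of the family, 3 of 24 relations passed, with the means kept or removed, so these calls depend on the family. The spread of Atp2b1 turned to -0.041 with slide means removed. The calls lost or gained between families follow from the number of relations adjusted over; the cause of the other changes was not tested.

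Mice of the same replicate number in both diets had deviations correlated from -0.35 to 0.39 over 11 pairs, 5 of them above 0.1. In 1 pair the HF-Q mouse correlated best with its own number. Some same-numbered mice also shared a slide (replicate 1 on slide 2, replicate 2 on slide 3). These values carry no test and cannot show whether the mice were paired. With the replicate block S100g differed by 0.49 (unadjusted p = 0.0126, adjusted p = 0.925, limma) and 0 genes passed. Signal over background limits Trpv6 and Cyp24a1.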
